A study of Mus musculus with 8 samples.

Results

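The genes of 6 transcription factors of pancreatic acinar cells were described in RNA from pancreas cells, namely Ptf1a, Bhlha15, Rbpjl, Nr5a2, Gata4 and Xbp1. They were taken by gene symbol from a table of 23284 symbols. All 6 were in the table and 5 passed the filter on low counts, the exception being Ptf1a. The mice were of strain CBA x C57BL/6J and carried Dclk1-CreERT, an inducible Cre recombinase transgene or allele named for Dclk1, and a tdTomato reporter. Both groups of cells came from such mice. One group of 4 libraries (numbered 1 to 4) is labelled Dclk1 positive and the other 4 (numbered 5 to 8) Dclk1 negative, and the series title speaks of progenitor cells. The labels read here state no age of the mice, no Cre induction and no sorting gate. They also leave unsaid whether each library stands for its own mouse, and every p-value below therefore rests on the spread among libraries alone, which may be technical.

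Acinar cells make and secrete the digestive enzymes of the pancreas. Ptf1a, a basic helix-loop-helix factor, binds DNA as the PTF1 complex together with an E protein and an RBP-type subunit. In adult acinar cells that subunit is Rbpjl, which takes the place of its relative Rbpj, and the complex switches on the enzyme genes. Bhlha15, also called Mist1, organises the secretory apparatus, and Xbp1 drives the expansion of the endoplasmic reticulum. The nuclear receptor Nr5a2 works with PTF1 on enzyme genes, and the zinc finger factor Gata4 acts in pancreas development beside Gata6. Outside acinar cells, Bhlha15 and Xbp1 are used by plasma cells and Gata4 by mesothelium.

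Dclk1+ libraries held 7990777 to 10282911 counts and Dclk1- libraries 6353841 to 7242084. Depth thus differed between the groups without overlap (exact two-sided permutation p = 0.0286). Reads of Rn45s, a ribosomal RNA gene, made up 8.90% to 18.3% of counts in Dclk1+ libraries, 9.34% and 9.92% in Dclk1- libraries 5 and 6, and 34.2% and 26.1% in Dclk1- libraries 7 and 8. Dclk1 was at 17.9 to 221 CPM in the Dclk1+ group and at 2.67 to 15.04 CPM in the Dclk1- group, CPM being counts per 1000000 of a library size scaled by TMM (the trimmed mean of M values). Lymphocyte RNA set the groups apart. The 7 B lymphocyte markers summed to 29.3 to 567 CPM against 2304 to 3175 CPM (Dclk1+ against Dclk1-), and the 7 T lymphocyte markers to 12.6 to 395 CPM against 701 to 3139 CPM. All were tested, with 3 B lymphocyte genes (Pax5, Cd22 and Fcer2a) and 1 T lymphocyte gene (Zap70) called lower. Fibroblast markers summed to 6156 to 39490 against 1153 to 8344 CPM, endothelial markers to 204 to 3292 against 195 to 1191 CPM, macrophage markers to 59.0 to 6874 against 450.5 to 1151 CPM and islet markers to 0.999 to 576 against 2.20 to 119 CPM, with 0 genes called in these lists. Dclk1+ library 4 had the lowest Dclk1 of its group, at 17.9 CPM. It also had the highest B lymphocyte, T lymphocyte and macrophage sums of that group, at 567, 395 and 6874 CPM. Of 13274 genes tested by edgeR's quasi-likelihood test, 463 (3.49%) had a Benjamini-Hochberg adjusted p under 0.05, with 2.47% higher and 1.02% lower in Dclk1+ cells. Dclk1, the gene in the group labels, was itself not called by this test. Its log2 fold change (Dclk1+ over Dclk1-) was 3.40 ± 0.82 (SE, edgeR adjusted p = 0.0503).

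None of the 5 factor genes tested passed that threshold, in either direction. Under other settings the share of all genes called was 6.46% with RLE factors, 0% with total counts, 5.72% without a filter on low counts, 2.24% at 1 CPM or more in 4 libraries, 6.64% in limma-voom and 5.21% without Rn45s. None of the factors fitted was called in any of these. Nr5a2, and no other factor, was called in 2 of all 17 settings, DESeq2 and edgeR without Dclk1+ library 4. Those settings called 25.8% and 18.4% of all genes tested. In the main fit Nr5a2 was the only one of the 5 factors with an unadjusted p under 0.05, which 31.9% of all genes tested had. Their median log2 fold change (Dclk1+ over Dclk1-) was 0.39 against -0.08 over all genes tested, with 3 positive and 2 negative values. No member had CPM values that separated the groups without overlap, while 21.6% of all genes tested did. The factors differed in how far they varied between libraries, least for Xbp1 and most for Nr5a2 among the 5 tested.

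**Figure D1:**
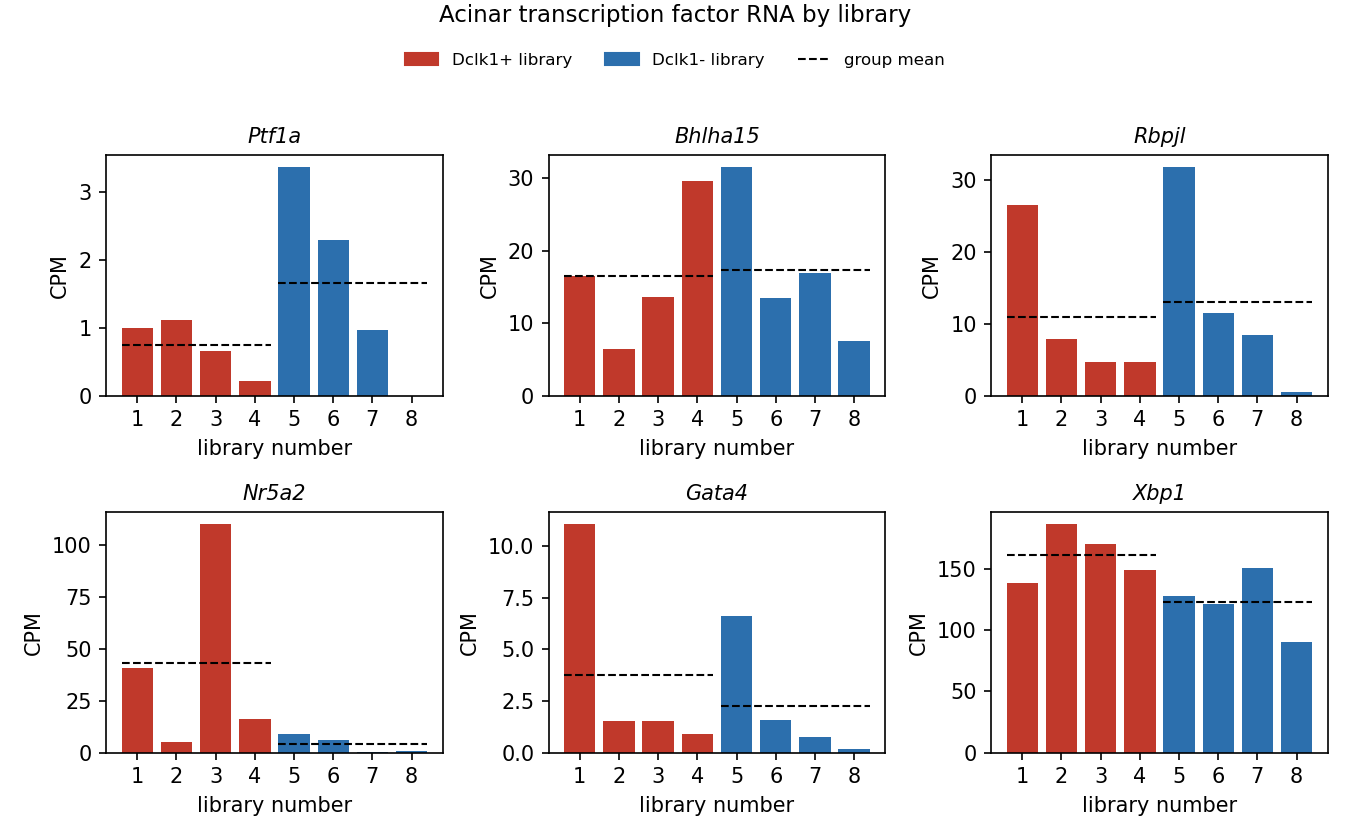
Level of each acinar transcription factor gene (vertical axis, CPM, from 0) in the 8 libraries (horizontal axis, library number). Red bars are Dclk1+ and blue bars Dclk1- libraries, and dashed lines are group means. Nr5a2 reached 110 CPM in Dclk1+ library 3, Rbpjl and Gata4 were high in Dclk1+ library 1 and Dclk1- library 5, and Xbp1 varied least.

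Ptf1a RNA was low, with at most 23 reads in a library. The Dclk1+ libraries 1 to 4 held 9, 11, 6 and 2 reads of it, which came to 0.999, 1.12, 0.661 and 0.222 CPM. The Dclk1- libraries 5 to 8 held 23, 19, 5 and 0 reads, or 3.38, 2.30, 0.966 and 0 CPM. The group ranges overlapped, with Dclk1- libraries 5 and 6 above and Dclk1- library 8 below all others. A count of 0 in library 8 allows up to 0.501 CPM, the worth of 3 counts there. The Dclk1+ mean was 0.751 ± 0.403 CPM and the Dclk1- mean 1.66 ± 1.48 CPM (SD, n = 4 for both), a difference within the spread (exact two-sided permutation p = 0.343, with 0.0286 the smallest that 4 against 4 allow). The difference (Dclk1+ minus Dclk1-) was -0.911 CPM, and it was -0.348 CPM without Dclk1- library 5, -0.554 CPM without Dclk1- library 6, -0.580 CPM without Dclk1+ library 4 and -1.50 CPM without Dclk1- library 8 (exact permutation p = 0.0857 to 0.686 over these). Fitted with edgeR without the filter on low counts, the log2 fold change was -1.03 (adjusted p = 0.578). In the mouse annotation GENCODE vM21 an antisense gene shares 609 exon bases with Ptf1a, and strand is not stated for the counts, so reads of the pair cannot be told apart.

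Rbpjl, the acinar RBP subunit of PTF1, stood high in 1 library of each group. It was at 26.5, 7.86, 4.74 and 4.67 CPM in Dclk1+ libraries 1 to 4. The Dclk1- libraries 5 to 8 had 31.9, 11.5, 8.50 and 0.501 CPM, the last from 3 reads. Libraries 1 and 5 were the high ones, and the groups overlapped over nearly their whole range. The fitted log2 fold change came to -0.26 ± 0.97 (SE, with a 95% interval of -2.43 to 1.91, edgeR adjusted p = 0.873), and it was positive without Dclk1+ library 3 or 4 or Dclk1- library 5 and under limma-voom. The gene Matn4 on the opposite strand shares 71 exon bases with Rbpjl.

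The start regions of Rbpjl, Bhlha15, Nr5a2 and the enzyme gene Cel are shown because PTF1, GATA factors and Nr5a2 are known to bind near acinar genes. Each runs from 250 bases before to 50 bases after a transcription start, 5′ to 3′ on the strand of the gene, from RefSeq (build GRCm38.p6). For Nr5a2, which has more than 1 start region in that table, the first is shown. Capitals mark matches, on either strand, to the motifs searched. The E-box of a PTF1 site was searched as CACCTG. The TC-box of that site, which Rbpj and Rbpjl bind, was searched as TTTCCC. A site of the GATA family was searched as GATAAG. An Nr5a2 site was searched as CAAGGTCA. No marked matches overlap each other in these sequences.
Rbpjl, chr2:164402944-164403243, plus strand: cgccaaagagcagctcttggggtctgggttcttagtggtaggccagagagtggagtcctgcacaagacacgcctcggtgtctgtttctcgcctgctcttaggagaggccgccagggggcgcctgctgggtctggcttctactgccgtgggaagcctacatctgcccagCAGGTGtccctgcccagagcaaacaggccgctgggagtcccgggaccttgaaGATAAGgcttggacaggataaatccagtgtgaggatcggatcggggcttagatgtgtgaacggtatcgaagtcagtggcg
Bhlha15, chr5:144190036-144190335, plus strand: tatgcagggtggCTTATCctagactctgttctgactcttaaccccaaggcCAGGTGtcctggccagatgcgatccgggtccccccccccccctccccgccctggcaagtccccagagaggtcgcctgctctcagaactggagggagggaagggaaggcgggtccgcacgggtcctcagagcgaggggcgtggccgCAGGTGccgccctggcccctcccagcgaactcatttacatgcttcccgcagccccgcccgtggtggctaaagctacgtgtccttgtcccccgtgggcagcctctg
Nr5a2, chr1:136960399-136960698, minus strand: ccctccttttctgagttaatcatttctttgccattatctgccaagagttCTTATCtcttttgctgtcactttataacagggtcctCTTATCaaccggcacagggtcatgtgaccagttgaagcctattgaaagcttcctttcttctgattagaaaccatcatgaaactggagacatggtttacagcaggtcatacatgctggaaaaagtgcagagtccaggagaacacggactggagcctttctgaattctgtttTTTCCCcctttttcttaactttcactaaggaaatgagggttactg
Cel, chr2:28563354-28563653, minus strand: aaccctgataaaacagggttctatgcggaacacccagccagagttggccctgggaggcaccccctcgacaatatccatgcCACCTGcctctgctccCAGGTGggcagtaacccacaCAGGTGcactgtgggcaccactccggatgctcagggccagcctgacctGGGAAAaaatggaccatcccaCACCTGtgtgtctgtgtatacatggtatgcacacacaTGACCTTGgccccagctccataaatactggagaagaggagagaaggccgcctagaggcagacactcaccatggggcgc

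The Rbpjl window holds 1 E-box match and 1 GATA match, and that of Bhlha15 holds 2 and 1. The Nr5a2 window holds 2 GATA matches and 1 TC-box match. The Cel window holds 4 E-box matches, 1 TC-box match and 1 Nr5a2 match. Of all 32851 start regions in the table, 20.2% hold CACCTG, 25.2% TTTCCC, 7.44% GATAAG and 1.56% CAAGGTCA. Of the 17 start regions of acinar enzyme genes there, CACCTG was found in 9, TTTCCC in 7, GATAAG in 9 and CAAGGTCA in 1. Of the 6 start regions of the 5 factor genes in the table, CACCTG was found in 4, TTTCCC in 3, GATAAG in 3 and CAAGGTCA in 0. For Nr5a2 the E-box match lies in its other start region, not shown. In the Xbp1 region, not shown, the E-box and TC-box matches overlap. A match describes letters and does not show binding.

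The enzyme genes, the known products of this network, varied between libraries together. Of 22 enzyme and secretory genes listed, all were tested and 0 were called, with a median log2 fold change of 0.21 against -0.08 over all genes. They took 8.21%, 2.02%, 4.35% and 7.17% of the counts in Dclk1+ libraries 1 to 4. Their share in Dclk1- libraries 5 to 8 was 9.72%, 5.33%, 1.34% and 0.423%. The groups overlapped (means 5.43% ± 2.80 and 4.20% ± 4.25, SD, n = 4 each, exact two-sided permutation p = 0.629). All 22 were lowest in Dclk1- library 8, and 17 were highest in Dclk1- library 5. Ctrb1, the chymotrypsinogen gene with the highest CPM among them, had a log2 fold change of 0.64 ± 0.98 (SE). In these bulk samples, fewer acinar cells and less RNA per cell cannot be told apart.

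The factors did not share 1 order of libraries with the enzymes. Ptf1a, Rbpjl, Gata4 and Xbp1 were, like the enzymes, lowest in Dclk1- library 8, and Ptf1a, Rbpjl and Bhlha15 were, like the enzymes, highest in Dclk1- library 5. Library 5 is also the only library for which the processing notes name the aligner TopHat2 with Bowtie2. The part of the aligner in its values was not tested. Dclk1+ library 4 had the third highest enzyme share and the second highest Bhlha15, while its Rbpjl, Ptf1a and Gata4 were the lowest of the Dclk1+ libraries. Relative to enzyme reads, Rbpjl ran from 6.61 reads per 100000 enzyme reads in Dclk1+ library 4 to 37.1 in Dclk1+ library 2, and from 11.2 (3 Rbpjl reads, library 8) to 48.7 in Dclk1- libraries. Bhlha15 ran from 20.8 to 41.8 reads per 100000 enzyme reads in Dclk1+ libraries. It was at 34.0 and 28.8 in Dclk1- libraries 5 and 6, and at 97.4 and 167 in Dclk1- libraries 7 and 8, where the enzyme share was lowest.

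**Figure D2:**
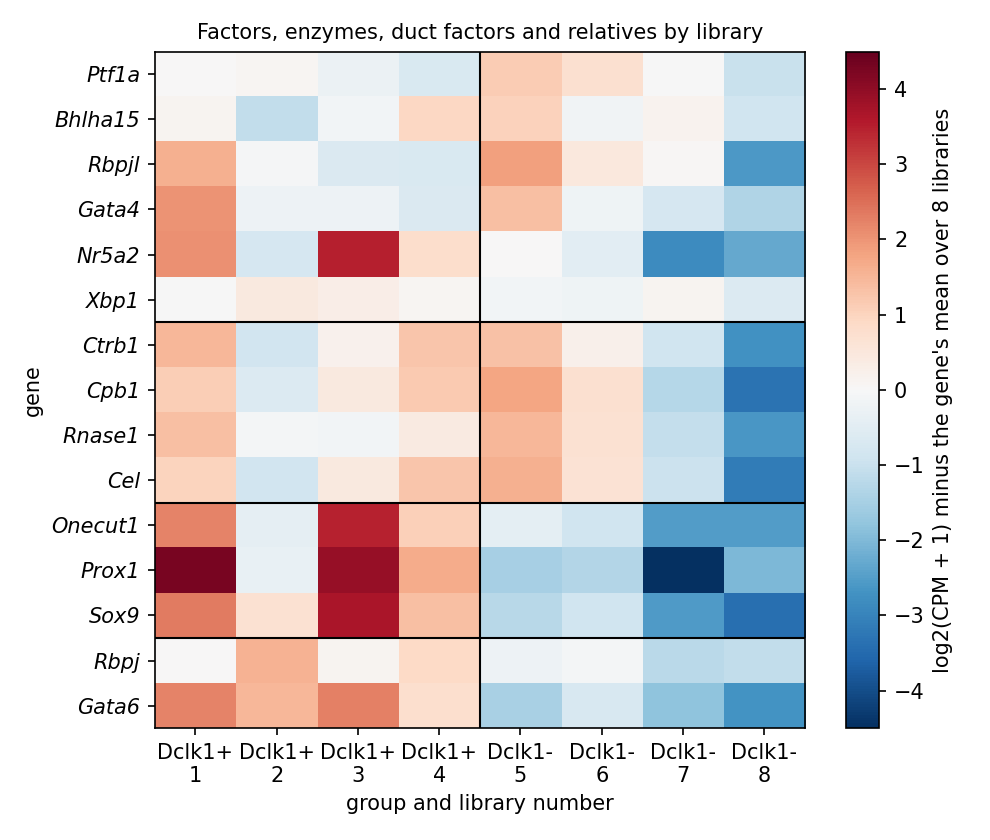
Levels of the 6 factors (top block), 4 enzyme genes, 3 duct or progenitor factors and the relatives Rbpj and Gata6 (bottom block) in each library (horizontal axis), as log2(CPM + 1) minus the mean of the gene over the 8 libraries (colour, red high and blue low). The enzymes are lowest in Dclk1- library 8, and Nr5a2 has the pattern of Onecut1, highest in Dclk1+ library 3.

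Of the partners and inhibitors of PTF1, 7 of 8 genes were tested and 0 were called, with a median log2 fold change of 0.74. Rbpj, the widely used relative of Rbpjl and the DNA-binding partner of Notch, was at 68.8, 200.4, 73.7 and 127 CPM in Dclk1+ libraries 1 to 4. Values in Dclk1- libraries 5 to 8 were 57.7, 63.2, 28.8 and 30.7 CPM. Every Dclk1+ library was above every Dclk1- library, a separation that 10.7% of all genes tested showed in this direction. Its log2 fold change was 1.38 ± 0.45 (SE, edgeR adjusted p = 0.0769, not passing), and among the 17 settings DESeq2 alone called it (adjusted p = 0.0119). Without Dclk1+ library 2, where Rbpj was highest, the log2 fold change was 0.99. The fibroblast marker sum was also highest in that library, at 39490 CPM, and the part of fibroblasts in the Rbpj values was not tested. The E protein genes Tcf3, Tcf12 and Tcf4 had log2 fold changes of -0.77 ± 0.41, 0.04 ± 0.29 and 0.81 ± 0.56. Among the Id genes, whose products hold E proteins off DNA, Id1, Id2 and Id3 had log2 fold changes of 2.09 ± 1.13, 0.74 ± 0.78 and -0.59 ± 0.44, and Id4 was too low to test.

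Levels of Rbpj and Rbpjl were compared per length, as CPM per kilobase of exon in GENCODE vM21. Rbpj was at 0.917 times the level of Rbpjl in Dclk1+ library 1 and at 0.64 times in Dclk1- library 5, the libraries with most Rbpjl. It was at 9.02, 5.50 and 9.65 times the level of Rbpjl in the remaining Dclk1+ libraries (2 to 4). Dclk1- libraries 6 and 7 had ratios of 1.94 and 1.20, and none is given for library 8, with 3 Rbpjl reads. The ratio therefore overlapped between the groups, and Rbpjl RNA was more abundant per length than Rbpj in 1 library of each.

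Nr5a2, the nuclear receptor, had the highest fold change of the factors and did not pass the test. It was at 40.6, 4.90, 110 and 16.1 CPM in Dclk1+ libraries 1 to 4. Dclk1- libraries 5 to 8 stood at 9.11, 6.19, 0.386 and 1.002 CPM, with 2 reads in library 7. Dclk1+ libraries 1, 3 and 4 lay above all Dclk1- libraries, while Dclk1+ library 2 lay below Dclk1- libraries 5 and 6. Its estimated log2 fold change was 3.34 ± 1.11 (SE, with a 95% interval of 0.85 to 5.84, edgeR adjusted p = 0.0829). Without Dclk1+ library 4 it was 3.81 with an adjusted p of 0.0472, and DESeq2 gave 3.49 with an adjusted p of 0.00501. Over all 17 settings tried, the log2 fold change stayed between 2.47 and 4.02, and the adjusted p ran from 0.00501 to 0.248. In DESeq2 25.8% of all genes tested were called, and without Dclk1+ library 4 in edgeR 18.4% were.

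The genes with the pattern closest to Nr5a2 over the 8 libraries were Onecut1, Pigr and Magi1. Closeness was the root mean square difference between log2(CPM + 1) profiles, each centred on its own mean. It was ranked over the genes tested, leaving out predicted or unnamed gene models, Mir and Snor symbols and date-like symbols. The difference was 0.32 for all 3, against a spread of 1.98 for Nr5a2 itself. Onecut1, a transcription factor of duct and progenitor cells, was at 26.1, 3.37, 62.7 and 11.1 CPM in Dclk1+ and at 3.23, 2.06, 0 and 0 CPM in Dclk1- libraries. Pigr encodes the polymeric immunoglobulin receptor of secretory epithelia, and Magi1 a scaffold protein of cell junctions. Duct RNA moved with Nr5a2 in part. Of 10 duct markers 9 were tested, 4 were called higher (Sox9, Spp1, Slc4a4 and Bicc1) and 0 lower. Their summed level was 594 to 4628 CPM against 152 to 444 CPM in Dclk1- libraries, highest in Dclk1+ library 3, and no marker of the list was at 0 in all libraries. Car2, named after its values were seen, had the opposite direction (log2 fold change -2.82 ± 1.12, edgeR adjusted p = 0.122). At 239 and 389 CPM in Dclk1- libraries 7 and 8 it made up most of their sums of 302 and 444 CPM. The part of duct cells in the Nr5a2 difference was not tested.

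Other duct and progenitor factors were in part high where Nr5a2 was high. Of 14 listed, 9 were tested, all 9 had a positive fold change and 1 was called, Sox9, a factor that duct cells depend on. The median log2 fold change was 3.65, against -0.08 over all genes, and the 14 summed to 98.6 to 1224 CPM in the Dclk1+ group and 70.3 to 116 CPM in the Dclk1- group. Hhex of this list differed little, with a log2 fold change of 0.07 ± 0.66. It was at 10.5 to 183 CPM in Dclk1+ and at 56.0 to 92.8 CPM in Dclk1- libraries. Prox1, a homeobox factor that can act as a corepressor of Nr5a2, was at 509, 19.7, 390.4 and 81.9 CPM in Dclk1+ and at 8.37, 9.46, 0 and 5.51 CPM in Dclk1- libraries. The groups did not overlap, a separation that 10.7% of all genes tested showed in this direction. The adjusted p in edgeR was 0.0503, just above 0.05. Prox1 was called in 5 of 17 settings, with adjusted p values from 2.48e-05 in DESeq2 to 0.141. Nr0b2, which encodes the corepressor SHP, was between 0 and 1.54 CPM and could not be tested, and its relative Nr0b1 had no read. Among genes known as Nr5a2 targets, Cel had a log2 fold change of 0.27 ± 0.89 and Scarb1, a lipoprotein receptor, one of 1.20 ± 0.72, and neither passed.

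**Figure D3:**
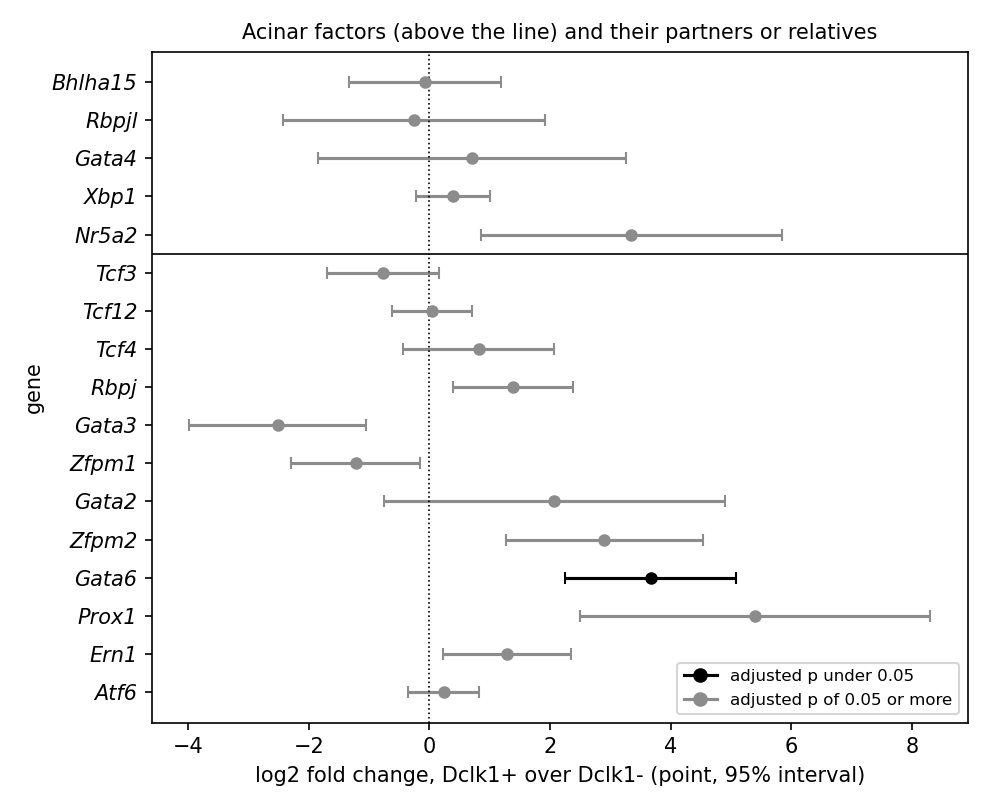
Log2 fold change of Dclk1+ over Dclk1- libraries (horizontal axis) with its 95% interval by edgeR for the 5 factors tested (above the line) and for partners and relatives (below the line). Black marks an adjusted p under 0.05, which Gata6 alone reached here, and the interval of Nr5a2 runs from 0.85 to 5.84.

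Gata4 RNA was low and stood out in 1 library of each group. It was at 11.1, 1.53, 1.54 and 0.889 CPM in Dclk1+ libraries 1 to 4. Across Dclk1- libraries 5 to 8 the values were 6.61, 1.58, 0.773 and 0.167 CPM, the last from a single read. Libraries 1 and 5 were high and the groups overlapped. On the log2 scale the fold change was 0.71 ± 1.14 (SE, with a 95% interval of -1.84 to 3.26, edgeR adjusted p = 0.694). It turned to -0.79 without Dclk1+ library 1 and was 2.11 without Dclk1- library 5, so single libraries set its sign. The 7 mesothelial markers summed to 33.4 to 95.9 CPM against 9.40 to 95.4 CPM in Dclk1- libraries. In libraries 1 and 5, where Gata4 was highest in each group, the sums were 76.9 and 9.40 CPM. Of 6 markers tested, 3 had positive and 3 negative fold changes, with 0 called. The sum in library 1 was carried by Rspo1, Wt1 and Krt19 (28.7, 22.5 and 21.4 CPM), the last also a duct marker. Named after their values were seen, Msln was at 4.22 CPM there and Upk3b, Upk1b and Lrrn4 at 0 CPM. The part of mesothelium in the Gata4 values was not tested.

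Gata6, the close relative of Gata4 in the pancreas, was higher in Dclk1+ cells. It was at 53.7, 32.1, 56.0 and 18.7 CPM in Dclk1+ libraries 1 to 4. Its Dclk1- values in libraries 5 to 8 were 3.23, 6.07, 2.32 and 0.835 CPM. The groups were thus without overlap, as for 10.7% of all genes tested in this direction. The log2 fold change was 3.67 ± 0.63 (SE, edgeR adjusted p = 0.0467). Without any 1 library it lay between 3.34 and 4.35. The call held without Dclk1+ library 4 (adjusted p = 0.0109) and was lost without each of the other 7 libraries (adjusted p = 0.0540 to 0.112), fits in which 0% of all genes were called. Per length, Gata6 was at 5.45 to 40.9 times the level of Gata4 in Dclk1+ libraries and at 0.551, 4.33 and 3.38 times in Dclk1- libraries 5 to 7, library 8 having a single Gata4 read. The duct marker sums given above lie in the same direction as Gata6. All 8 fibroblast, 8 endothelial and 7 macrophage markers tested also had positive fold changes, with 0 called. Their sums overlapped between the groups. The macrophage sum peaked at 6874 CPM in library 4, where Gata6 was lowest among Dclk1+ libraries. Macrophage sums of libraries 1 and 2 (264 and 59.0 CPM) fell below every Dclk1- library. Library 3 (994 CPM) fell within the Dclk1- range. Endothelial sums exceeded every Dclk1- library in libraries 1 and 3 (3292 and 1429 CPM). Those of libraries 2 and 4 (204 and 945 CPM) did not. The part of any of these cell types in the Gata6 values was not tested. The difference between the fold changes of Gata4 and Gata6 was not tested.

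**Figure D4:**
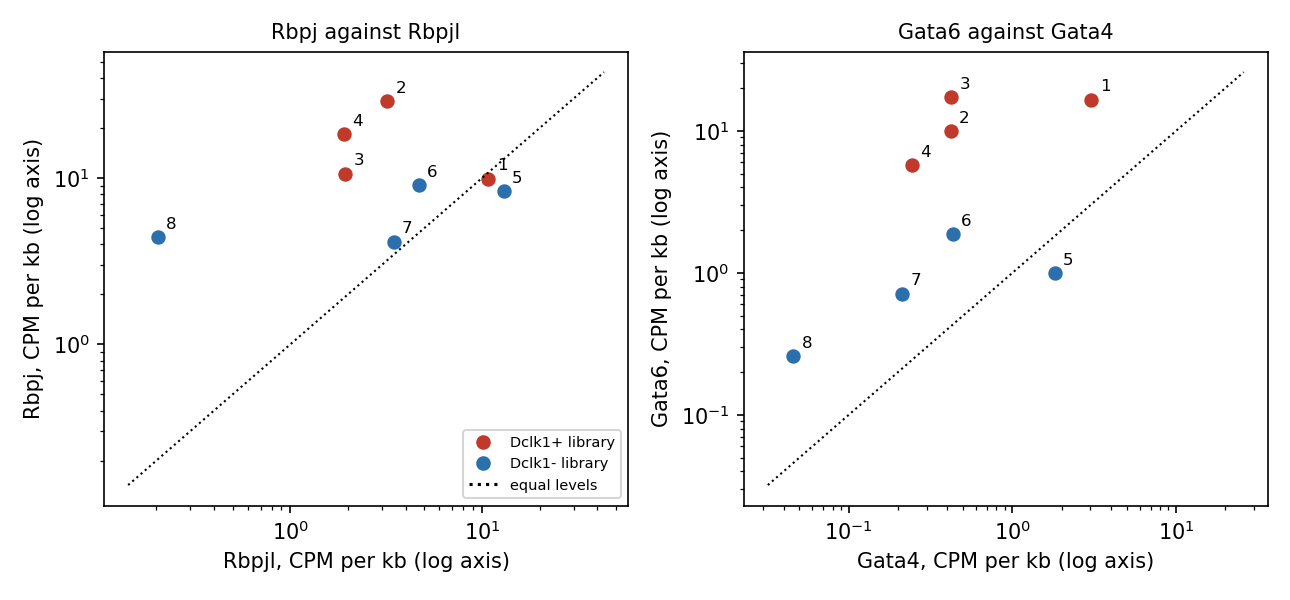
Level per exon length of Rbpj against Rbpjl (left) and of Gata6 against Gata4 (right), in CPM per kilobase on log axes, with 1 point per library (red Dclk1+, blue Dclk1-, library number beside it) and a dotted line of equal levels. The Dclk1+ libraries lie higher for Gata6, at 5.77 to 17.3 against 0.258 to 1.88 CPM per kilobase, while Gata4 and Rbpjl overlap.

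Of the 7 GATA relatives and cofactors listed, 5 were tested, with Gata6 called higher and 0 called lower. Gata3, which is used by T lymphocytes, was at 0.918 to 6.78 CPM against 14.99 to 27.2 CPM in Dclk1- libraries (log2 fold change -2.52 ± 0.65, edgeR adjusted p = 0.0542), and it was called in 4 of 17 settings (adjusted p = 0.00208 to 0.191). The T lymphocyte markers lay in the same direction, all 7 without overlap between groups and 1 of them called (Zap70). Of all genes tested, 10.9% were lower in Dclk1+ cells without overlap. The part of T lymphocytes in the Gata3 values was not tested. The GATA cofactor genes Zfpm1 and Zfpm2 had log2 fold changes of -1.22 ± 0.48 and 2.90 ± 0.73, with edgeR adjusted p values of 0.118 and 0.0526. Neither overlapped between groups, as was so for 10.9% of all genes tested in the lower and 10.7% in the higher direction. Gata2 had a log2 fold change of 2.07 ± 1.26, and Gata1 and Gata5 were too low to test.

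Bhlha15 was present at a similar range of levels in both groups. It was at 16.5, 6.43, 13.6 and 29.6 CPM in Dclk1+ libraries 1 to 4. The Dclk1- libraries 5 to 8 had 31.6, 13.5, 17.0 and 7.51 CPM. The group means were 16.5 ± 9.67 and 17.4 ± 10.2 CPM (SD, n = 4 each). The fitted log2 fold change came to -0.07 ± 0.56 (SE, with a 95% interval of -1.33 to 1.18, edgeR adjusted p = 0.940), and its sign changed with the scaling, being positive with RLE factors and with total counts. This interval allows changes of more than 2-fold in either direction, so a difference of that size is not excluded. Of 6 genes known as Bhlha15 targets, 5 were tested and 0 called, with a median log2 fold change of 1.16. Rab3d, a small GTPase of secretory granules, and Copz2, a coatomer subunit, had log2 fold changes of 1.16 ± 0.37 and 1.64 ± 0.51 (adjusted p = 0.0768 and 0.0717). Gjb1, the gap junction protein connexin 32, and Rab26, another granule GTPase, had values of 1.78 ± 1.18 and 0.81 ± 1.11, Serpini1 one of -1.42 ± 0.78, and Atp2c2 was too low to test.

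Xbp1 was the steadiest of the factors between libraries. It was at 138, 187, 170.1 and 149 CPM in Dclk1+ libraries 1 to 4. Values in Dclk1- libraries 5 to 8 were 128, 122, 151 and 90.5 CPM. The groups overlapped through Dclk1- library 7 alone, which lay above Dclk1+ libraries 1 and 4. With CPM by total counts the groups no longer overlapped, a setting for which the share of all genes without overlap was not computed. Its estimated log2 fold change was 0.39 ± 0.27 (SE, with a 95% interval of -0.22 to 1.01, edgeR adjusted p = 0.340), and over the 17 settings it ran from 0.26 to 0.59 with no call. The highest library was 2.07 times the lowest, against 4.91 times for Bhlha15. Counts per gene do not show the spliced form of Xbp1 mRNA, which encodes the active factor.

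Most genes listed around Xbp1 did not pass the test. Of the 6 stress sensor and early response genes listed, 5 were tested and 0 called, with a median log2 fold change of -0.04. Ern1, whose product IRE1 splices Xbp1 mRNA, was at 63.6, 25.3, 31.2 and 34.2 CPM in Dclk1+ and at 19.0, 19.5, 5.41 and 19.4 CPM in Dclk1- libraries. The groups did not overlap, a separation that 10.7% of all genes tested showed in this direction. The log2 fold change of Ern1 was 1.28 ± 0.48 (edgeR adjusted p = 0.104). Atf6 and Eif2ak3, the other two sensors of the endoplasmic reticulum, had log2 fold changes of 0.23 ± 0.26 and -0.37 ± 0.32. Of 22 genes known as Xbp1 targets, 22 were tested, 0 were called higher and 1 was called lower, with a median of -0.04. The gene called was Syvn1, an E3 ubiquitin ligase that clears misfolded proteins. It was at 46.5, 57.8, 40.3 and 70.4 CPM in Dclk1+ and at 159, 152, 187 and 204 CPM in Dclk1- libraries, with a log2 fold change of -1.71 ± 0.29 (adjusted p = 0.0467). That call held without Dclk1+ library 4 (adjusted p = 0.0129) and was lost without each of the other 7 libraries (adjusted p = 0.0540 to 0.112), the same fits with 0% of genes called, with log2 fold changes from -1.76 to -1.48. The lymphocyte marker sums given above lie in the same direction as Syvn1, and their part in its values was not tested.

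Plasma cells also use Bhlha15 and Xbp1, and their markers did not move 1 way. Of 9 plasma cell markers 8 were found in the table, 7 were tested and 0 called, with a median log2 fold change of -0.44. They summed to 46.2 to 1092 CPM against 1228 to 1542 CPM in Dclk1- libraries, and none was at 0 in all libraries. The sum was carried by Pou2af1, a cofactor of B lineage cells, at 7.96 to 419 CPM against 703 to 1176 CPM, and by Irf4 and Igj. Sdc1 and Prdm1, named after their values were seen, had positive log2 fold changes of 1.29 ± 0.67 and 0.56 ± 0.79 that did not pass. The part of plasma cells in the Bhlha15 and Xbp1 values was not tested.

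Compared per exon length, Xbp1 was the most abundant factor in all 8 libraries, at 57.8 to 78.3 CPM per kilobase in the Dclk1+ group and 37.9 to 63.1 in the Dclk1- group. In Dclk1+ cells Nr5a2 followed at 7.71 ± 8.48 CPM per kilobase (SD, n = 4), then Bhlha15 at 4.73 ± 2.77, Rbpjl at 4.46 ± 4.27, Gata4 at 1.03 ± 1.35 and Ptf1a at 0.498 ± 0.267. In Dclk1- cells the order after Xbp1 was Rbpjl at 5.33 ± 5.44, Bhlha15 at 4.98 ± 2.93, Ptf1a at 1.10 ± 0.984, Nr5a2 at 0.748 ± 0.753 and Gata4 at 0.626 ± 0.808. Apart from the gap below Xbp1, each neighbouring pair in these orders had overlapping ranges. Within libraries, Rbpjl was above Gata4 in 4 of 4 Dclk1+ libraries and Bhlha15 above Ptf1a in 4 of 4 Dclk1- libraries, while the other neighbouring pairs below Xbp1 changed order in 1 or 2 libraries of the group.

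The closest profiles of the other factors were as follows. For Rbpjl they were Hamp2, a hepcidin gene, Zfp82, a zinc finger gene, and Cckar, the cholecystokinin receptor, at root mean square differences of 0.45, 0.46 and 0.56 log2 units. Cckar was at 112, 41.8, 35.3 and 52.0 CPM in Dclk1+ libraries and ran from 6.68 to 95.9 CPM in Dclk1- libraries. For Gata4 they were Hapln4, Serpina10 and Unc79, at 0.30, 0.43 and 0.46. For Bhlha15 they were Ptprn2, Apol10b and Fancl, at 0.37 to 0.38, and for Xbp1 Fkbp2, Tmem59 and Map2k3, at 0.13 to 0.14. Among the 5 factors tested the closest pair was Rbpjl and Gata4, at 0.64, and the farthest was Rbpjl and Nr5a2, at 2.03.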

How the data were processed

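RNA from 8 libraries was isolated on a micro scale, amplified by Ovation RNA-Seq V2 and sequenced as TruSeq libraries, per the labels' protocols. The authors deposited raw counts of reads for each gene symbol, with no normalization. Per the submitters' processing notes, build mm9, HTSeq 0.6.1 and bcl2fastq 1.8.4 served every library. For alignment the notes name TopHat2 2.0.4 with Bowtie2 2.0.0 in the case of Dclk1- library 5, whereas the remaining 7 have TopHat with Bowtie 0.12.7. Annotation and strand were not stated.

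Genes were filtered by filterByExpr (minimum count 10, total 15), scaled by TMM and tested by edgeR 4.0.16 in R 4.3.3 with the group as the only term, with Benjamini-Hochberg adjustment over 13274 genes and a threshold of 0.05. The step was tested on simulated data with the same variability for every gene, which does not measure its power or error rate in these libraries. A gene's standard error was taken from its F statistic. DESeq2 1.42.0, limma-voom (limma 3.58.1), other scalings and filters, and fits without each library were alternatives. Ptf1a failed the filter and was given an exact permutation test over libraries, chosen after seeing the data. The smallest chi-square per degree of freedom between libraries of a group was 19.7, so no pair was 1 library deposited again. Exon lengths came from GENCODE vM21 (GRCm38, not the files' build) and serve only levels per length; no gene coordinates are given for mm9. Of the 6 genes, 5 had a start region in the RefSeq table, Gata4 being the one without. Members and lists were chosen with earlier results of these data known. Named genes were the members, their partner lists, the called or most abundant genes of other lists and the 3 nearest profiles of each member. Floors cover counting error only.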

Additional observations from a re-analysis of the deposited data

Results flagged for a closer look

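In groups of 4 libraries, a library was singled out when its gap to the nearest other library took a share of the group's range above Dixon's critical value. Such a library was found in 6 of 74 groups of values. Chance flags about 1 in 20 groups, but the count cannot be set against that rate, since 3 of the 6 are genes chosen for a profile like that of a factor. Rbpjl in Dclk1+ library 1 was at 26.5 CPM, against 4.67 to 7.86 CPM in the other Dclk1+ libraries. Gata4 in the same library was at 11.1 CPM, against 0.889 to 1.54 CPM. Hapln4 and Serpina10, chosen as the closest profiles to Gata4, reached 7.99 CPM (elsewhere in the group no more than 1.65) and 9.99 CPM (no more than 1.67) there. Fancl in Dclk1+ library 4 was at 17.1 CPM, against 7.86 to 9.32 CPM. Ern1 in Dclk1- library 7 was at 5.41 CPM, the lowest of its group, against 19.0 to 19.5 CPM.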

How the results depend on the processing

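No paired analysis was possible because the groups share no replicate number. Among the factors, Nr5a2 was called under DESeq2 (log2 fold change 3.49) and without Dclk1+ library 4, and the other 4 factors tested were not called under any of the 17 settings. Ptf1a could be fitted in 3 settings and was not called, and its CPM difference ran from -1.50 to -0.348 without each library in turn. Without each library in turn, log2 fold changes ran from -0.35 to 0.37 for Bhlha15, -1.19 to 0.66 for Rbpjl, 2.47 to 4.02 for Nr5a2, -0.79 to 2.11 for Gata4 and 0.26 to 0.59 for Xbp1. Values near 0 changed sign in other settings too. Bhlha15 was at 0.0209 under DESeq2 and with RLE factors, 0.0221 without Rn45s and 0.0029 with total counts. Rbpjl was at 0.23 under limma-voom, and Gata4 at -0.0087 without Dclk1- libraries 7 and 8. The cause of these changes was not tested. Leaving out Rn45s and leaving out libraries 7 and 8 were alternatives chosen after seeing the data.

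The number of genes called higher and lower was 2290 and 1132 under DESeq2, 0 and 0 with total counts, and 793 and 264 without a filter. It was 218 and 88 with at least 1 CPM in 4 libraries. With RLE factors it was 665 and 193, without Rn45s 543 and 151, and under limma-voom 407 and 475. Limma-voom thus called more genes lower than higher, unlike the main fit with 328 higher and 135 lower. Without each library in turn it was 0 to 1640 higher and 0 to 841 lower, and without libraries 7 and 8 it was 0 and 0. Members without overlap numbered 1 with CPM by total counts (Xbp1), and 0 to 1 when a library was left out (Nr5a2 without Dclk1+ library 2, Xbp1 without Dclk1- library 7). The share of all genes without overlap was not computed in these settings, so the counts of members cannot be set against it. The enzyme share difference (Dclk1+ minus Dclk1-, in percent of counts) ran from -0.0289 without Dclk1- library 8 to 3.07 without Dclk1- library 5.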
